A study of Homo sapiens with 6 samples.

Results

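The genes described here are SRF, the gene of serum response factor, and 9 genes of the actin cytoskeleton and of the smooth muscle type contractile apparatus that SRF is known to regulate. They were taken by symbol from the read count and FPKM tables, and all 10 of 10 were found among 26389 genes and passed the filter on low counts that left 14197 tested genes. The list was chosen by measured values of these data, since it was drawn up with the fold changes of the shTCTP against shCtrl comparison already known. The differences of these 10 genes between the groups are therefore given as a description, and they are no test of the list.

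RNA was sequenced from 6 samples of HepG2, a line grown from a human liver tumour that keeps many hepatocyte functions. In 3 samples (shTCTP) the cells had received a short hairpin RNA plasmid against TCTP, the translationally controlled tumour protein encoded by TPT1, and in 3 samples (shCtrl) a control hairpin plasmid. A lipid reagent carried both plasmids into the cells, so the knockdown was transient and a single hairpin label stands for it. A harvest at 48 h is named for quantitative PCR, and the harvest for sequencing is not given separately. The libraries held 25427614 to 30486409 reads in shTCTP cells and 29969485 to 30348435 reads in shCtrl cells.

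Serum response factor binds DNA at a short AT-rich element called the CArG box and works with either of 2 kinds of partner. Myocardin-related transcription factors (MRTFs) are held in the cytoplasm by unpolymerised actin and enter the nucleus when actin polymerises, and with SRF they drive genes of the actin cytoskeleton. Ternary complex factors such as ELK1 are phosphorylated by MAP kinases and with SRF drive immediate early genes such as FOS and EGR1. In the liver, smooth muscle type actin genes are best known from activated stellate cells, while hepatocytes express mainly the cytoplasmic actins.

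Promoter sequences were taken from RefSeq on GRCh38.p14, as windows of 300 bases that run from 250 bases before to 50 bases after an annotated start. Windows were held for 7 of the 10 genes, and were searched for the strict CArG box (a pair of C, a run of A or T, a pair of G), a pattern that reads alike on both strands. They are printed 5′ to 3′ on the strand of the gene, in lower case with each match in capitals. SRF itself, ACTG1, FLNA and FHL2 are shown because they held a match, and CNN1 because it was the gene that differed most between the groups.

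SRF, chr6:43171019-43171318, plus strand: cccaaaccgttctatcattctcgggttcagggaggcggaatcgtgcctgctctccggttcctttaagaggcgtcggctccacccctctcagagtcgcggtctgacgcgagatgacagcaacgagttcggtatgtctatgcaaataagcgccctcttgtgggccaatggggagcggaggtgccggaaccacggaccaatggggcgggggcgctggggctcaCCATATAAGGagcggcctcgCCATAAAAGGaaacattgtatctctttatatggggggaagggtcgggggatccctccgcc

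ACTG1, chr17:81512750-81513049, minus strand: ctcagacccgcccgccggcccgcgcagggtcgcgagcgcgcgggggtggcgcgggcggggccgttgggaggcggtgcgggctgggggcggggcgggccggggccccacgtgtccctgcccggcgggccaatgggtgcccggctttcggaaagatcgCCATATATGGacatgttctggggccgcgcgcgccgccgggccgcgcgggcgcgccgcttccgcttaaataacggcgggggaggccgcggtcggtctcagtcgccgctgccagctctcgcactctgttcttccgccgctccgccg

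FLNA, chrX:154374585-154374884, minus strand: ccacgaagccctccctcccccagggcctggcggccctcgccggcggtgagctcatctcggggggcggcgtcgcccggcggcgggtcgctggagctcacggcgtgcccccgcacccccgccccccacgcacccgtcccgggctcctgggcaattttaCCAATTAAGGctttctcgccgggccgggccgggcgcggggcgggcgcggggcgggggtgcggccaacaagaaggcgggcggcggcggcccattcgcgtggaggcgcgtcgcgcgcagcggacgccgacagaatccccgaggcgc

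FHL2, upstream start, chr2:105438464-105438763, minus strand: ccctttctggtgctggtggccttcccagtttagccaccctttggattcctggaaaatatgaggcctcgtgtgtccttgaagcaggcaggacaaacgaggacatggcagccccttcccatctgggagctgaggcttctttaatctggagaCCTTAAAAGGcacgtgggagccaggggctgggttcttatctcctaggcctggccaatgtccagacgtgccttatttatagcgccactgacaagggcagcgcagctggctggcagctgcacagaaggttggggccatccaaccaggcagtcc

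FHL2, downstream start, chr2:105399002-105399301, minus strand: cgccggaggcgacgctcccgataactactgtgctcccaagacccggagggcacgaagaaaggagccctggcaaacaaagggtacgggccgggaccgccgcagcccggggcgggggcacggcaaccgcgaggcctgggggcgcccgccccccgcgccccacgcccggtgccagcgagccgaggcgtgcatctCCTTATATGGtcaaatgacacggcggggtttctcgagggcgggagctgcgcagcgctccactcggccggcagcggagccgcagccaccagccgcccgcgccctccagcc

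CNN1, chr19:11538601-11538900, plus strand: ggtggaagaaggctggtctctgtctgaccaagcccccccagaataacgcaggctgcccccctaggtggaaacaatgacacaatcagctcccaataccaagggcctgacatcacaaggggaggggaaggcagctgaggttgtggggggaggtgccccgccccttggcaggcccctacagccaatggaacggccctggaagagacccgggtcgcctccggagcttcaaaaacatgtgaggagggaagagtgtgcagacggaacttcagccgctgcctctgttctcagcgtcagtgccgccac

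The SRF window held a pair of matches. CCATATAAGG began 30 bases and CCATAAAAGG 10 bases before the RefSeq start, and the second SRF window, at a start further inside the gene, held none. ACTG1 and FLNA each had a match that began 94 bases before the start, CCATATATGG in ACTG1 and CCAATTAAGG in FLNA. FHL2 had CCTTAAAAGG 101 bases before the upstream start printed above. A further overlapping window, with a start slightly more upstream, held the same match 85 bases before that start. FHL2 also had CCTTATATGG 59 bases before its downstream start, while its remaining window held none. No strict match was found in the windows of CNN1, VCL and TPM1. Over all RefSeq windows 1.29% (454 of 35116) held a match, and over all genes with a window 1.6% (438 of 27305) held one in at least 1 window. By the same count per gene, 10 of 22 other MRTF-SRF cytoskeletal genes held a match. So did 7 of 19 relatives of the 10 genes and 4 of 15 focal adhesion genes. Both of these lists overlap with the cytoskeletal one, and some of the matches are the same genes. A match was held by 2 of 8 ternary complex factor type targets, 0 of 7 SRF cofactors and 0 of 11 genes of actin monomer binding and turnover. A gene with more windows has more chances to hold a match, and the number of windows per gene was not matched between lists and background. These counts describe letters in short windows, and no binding of SRF was measured.

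**Figure D1:**
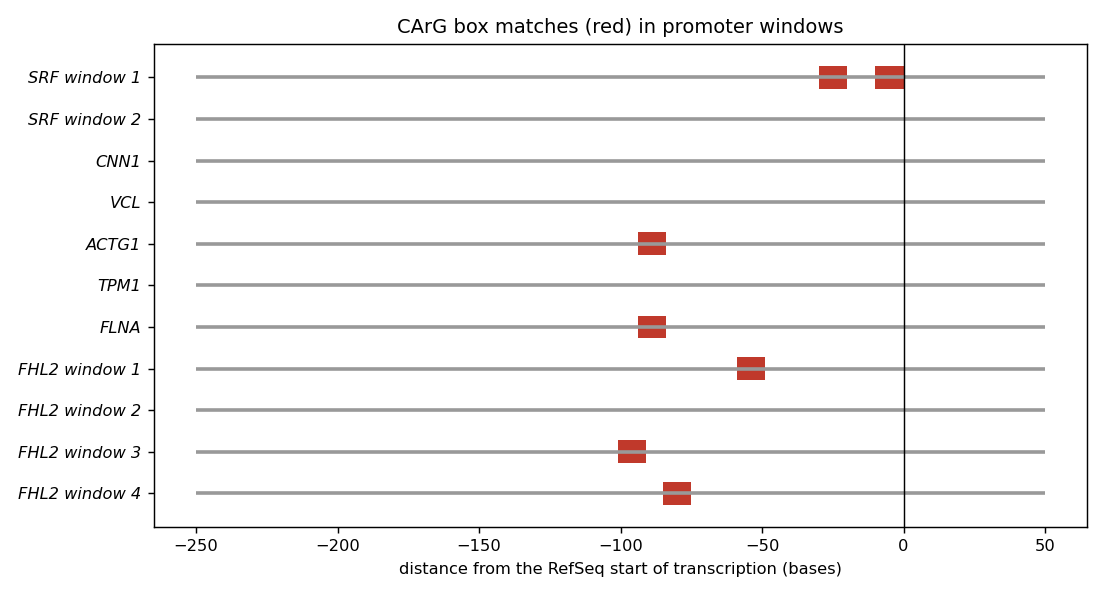
Positions of strict CArG box matches (red blocks, 10 bases wide) along the promoter windows of the 7 genes, as distance in bases from the RefSeq start (vertical line). SRF window 1 carried a pair of matches within 30 bases of its start, those of ACTG1, FLNA and FHL2 began 59 to 101 bases before theirs, and CNN1, VCL and TPM1 had none.

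In expression, CNN1, which encodes the smooth muscle calponin 1 that binds actin and restrains myosin, was the only one of the 10 genes that passed the threshold, an adjusted p under 0.05 over all genes in the quasi-likelihood test of edgeR. It was 3.14-fold higher in shTCTP cells. TAGLN was 1.32-fold and FHL2 1.22-fold higher on average, without passing. SRF, ACTB, TPM1, FLNA, VCL, MYL9 and ACTG1 all lay between 0.976-fold and 1.13-fold. Thus 1 of 10 genes was called higher and 0 lower, and over all tested genes 1.41% were called, 1.26% higher and 0.148% lower. Because the list was chosen with this comparison known, nothing is read from that count. In RNA from whole cultures, fewer cells of a kind and less RNA per cell cannot be told apart.

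The targeted transcript itself stood at 2032, 1807 and 1559 CPM in shTCTP libraries 1 to 3 and at 2575, 2249 and 2290 CPM in shCtrl libraries 1 to 3. CPM here are read counts relative to library size, scaled by TMM factors. TPT1 was at 0.759 of its shCtrl level and did not pass (edgeR adjusted p = 0.396). The shTCTP library 3 had the fewest reads and stood apart, with a mean correlation of 0.977 with the others, against 0.986 to 0.987 for the other 5. In this library and in shCtrl library 1 long genes read high and short genes low, and this is taken up with the long genes FLNA and VCL below. Whether replicates were grown separately is not stated, so the replicate error behind each p-value may be a technical one only.

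Levels were compared between genes in FPKM, which is per length. In shCtrl cells ACTG1 and ACTB, the cytoplasmic gamma and beta actins of every cell, were far above the rest, at 1350 ± 126 and 1323 ± 168 FPKM (SD, n = 3 each), and did not differ beyond their spread. TAGLN followed at 65.5 ± 12.5 FPKM and FLNA at 51.2 ± 8.64 FPKM, which also overlapped in their spread. SRF stood at 19.7 ± 0.960 FPKM, CNN1 at 6.96 ± 0.641 and TPM1 at 5.51 ± 0.595. MYL9 (4.05 ± 0.15), FHL2 (3.57 ± 0.570) and VCL (2.88 ± 0.825) were the lowest, within 1 SD of a neighbour. The length behind the deposited FPKM of TPM1, 7.65 kb from the ratio of counts to FPKM, exceeds its longest GENCODE transcript of 3.96 kb. That of FHL2, 6.41 kb, likewise exceeds 4.88 kb. Their places in this order, and the FHL and tropomyosin family shares given below, depend on those lengths.

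In shTCTP cells the order was ACTB (1593 ± 349 FPKM), ACTG1 (1415 ± 105), TAGLN (92.9 ± 3.98), FLNA (59.1 ± 15.5), SRF (24.1 ± 3.06), CNN1 (23.5 ± 2.12), TPM1 (6.35 ± 0.545), FHL2 (4.68 ± 0.215), MYL9 (4.43 ± 0.906) and VCL (3.20 ± 0.847) (SD, n = 3 each). CNN1 thus stood beside SRF in shTCTP cells, where its level had been between SRF and TPM1 in shCtrl cells. Deposited FPKM carry no TMM scaling, and on the log2(FPKM + 0.1) scale the median difference of all genes was 0.09. Differences between the groups are therefore given in CPM.

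**Figure D2:**
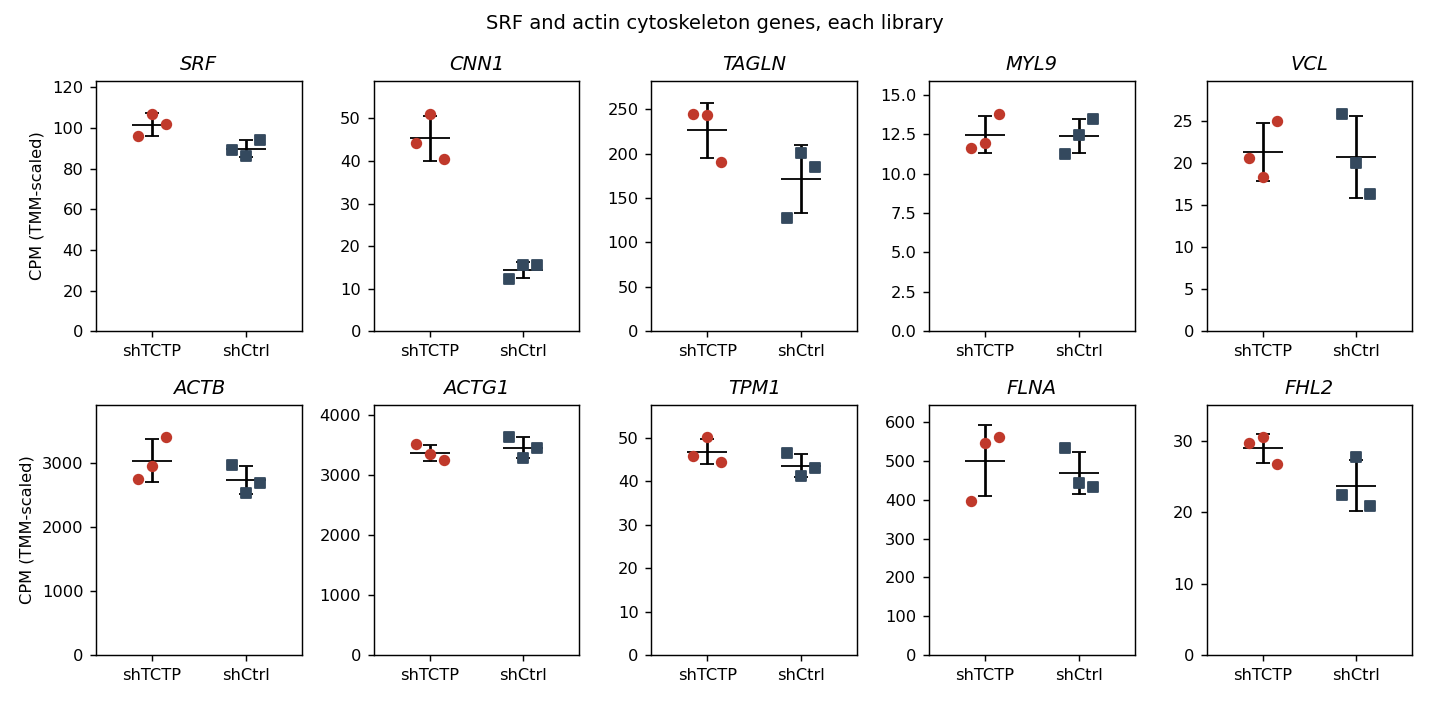
CPM, scaled by TMM factors, of the 10 genes in each library, with shTCTP libraries 1 to 3 (red circles) on the left and shCtrl libraries 1 to 3 (dark squares) on the right, from left to right within a group. The bars give the mean ± SD (n = 3 each). The groups are apart for SRF and CNN1 and overlap for the other 8 genes.

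SRF (chromosome 6, 43171299 to 43181507, plus strand, GRCh38) had 95.9, 107 and 102 CPM in shTCTP libraries 1, 2 and 3, and 89.1, 86.1 and 94.1 CPM in shCtrl libraries 1, 2 and 3. Every shTCTP library lay above every shCtrl library, by a narrow margin. Such a separation with shTCTP above was found for 9.83% of all tested genes and one with shTCTP below for 7.3%, and among the 10 genes here for SRF and CNN1. The log2 fold change was 0.18 (SE 0.12, 95% interval -0.08 to 0.44) and did not pass. Leaving out any 1 library kept it between 0.13 and 0.22.

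The genes whose CPM followed SRF most closely over the 6 libraries were RPL13AP20, ABCF2, MAFK, PLK1 and COX19, with Pearson r of 0.991, 0.990, 0.987, 0.985 and 0.985. RPL13AP20 is a ribosomal protein pseudogene counted with 4 to 20 reads a library, and its reads may come from near-identical copies. ABCF2 encodes a member of the ABC protein family, MAFK a small MAF transcription factor, PLK1 a mitotic kinase and COX19 an assembly factor of cytochrome oxidase. An r over 0.95 was reached by 47 genes, and the 6 libraries share their grouping and depth, so these values are only a description. Of the other 9 genes described here, CNN1 had the highest r with SRF, 0.855, and ACTG1 the lowest, -0.330.

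CNN1 (chromosome 19, 11538717 to 11550323, plus strand) had 44.2, 51.1 and 40.6 CPM in shTCTP libraries 1 to 3, on 1201 to 1520 reads, and 12.2, 15.5 and 15.6 CPM in shCtrl libraries 1 to 3, on 372 to 446 reads. The lowest shTCTP library lay far above the highest shCtrl library. The log2 fold change was 1.65 (SE 0.15, 95% interval 1.33 to 1.97). It passed the threshold in every alternative run, with log2 fold changes of 1.54 to 1.74, and was 1.73 without shTCTP library 3. No gene overlaps CNN1 in GENCODE 29.

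The share of CNN1 within the calponin family also differed between the groups. CNN2 and CNN3 are the calponins of non-muscle cells. CNN1 took 15.8%, 16.2% and 13.5% of the calponin FPKM in shTCTP libraries 1 to 3, and 4.70%, 5.71% and 5.904% in shCtrl libraries 1 to 3. CNN2 remained the main calponin, with 60.9 ± 2.75% in shTCTP and 70.02 ± 1.34% in shCtrl cells (SD, n = 3 each). Its own CPM gave a log2 fold change of -0.03 (SE 0.13) and that of CNN3 0.13 (SE 0.14), and neither passed. The sign for CNN2 turned in 4 alternatives.

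TAGLN (chromosome 11, 117199321 to 117204782, plus strand) encodes transgelin, a calponin-related protein that bundles actin filaments in smooth muscle and fibroblasts. It had 245, 243 and 190 CPM in shTCTP libraries 1 to 3, and 128, 201 and 185 CPM in shCtrl libraries 1 to 3. The shCtrl library 1 was the lowest of all, and shTCTP library 3 lay below shCtrl library 2, so the groups overlapped. The log2 fold change was 0.40 (SE 0.17, 95% interval 0.05 to 0.75) and did not pass. It was 0.23 without shCtrl library 1 and 0.53 without shCtrl library 2. PCSK7 overlaps TAGLN on the opposite strand with 577 to 777 reads, so reads could be shared only if strand was not used in counting, a setting that no label records.

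The relatives of TAGLN passed the threshold. TAGLN2, the transgelin of many non-muscle cells, rose to 136 ± 3.25 CPM in shTCTP cells, against 92.3 ± 10.4 CPM in shCtrl cells (SD, n = 3 each). Its log2 fold change was 0.56 (SE 0.13, edgeR adjusted p = 0.0393). TAGLN3, best known from neurons, rose to 21.9, 23.1 and 12.6 CPM in shTCTP libraries 1 to 3, against 4.53, 7.70 and 6.93 CPM in shCtrl libraries 1 to 3 (log2 fold change 1.59, SE 0.23, edgeR adjusted p = 0.00129). The shTCTP library 3 was the lowest of its group for TAGLN3 and still above all shCtrl libraries. TAGLN2 missed the threshold with RLE scaling (edgeR adjusted p = 0.0569) and without any 1 library but shTCTP library 3, with edgeR adjusted p of 0.0722 and 0.193 without shTCTP library 1 or 2 and 0.114, 0.131 and 0.126 without shCtrl library 1, 2 or 3. TAGLN3 passed in every alternative. Within the family TAGLN held 53.7 ± 2.66% of the FPKM in shTCTP and 58.0 ± 2.78% in shCtrl cells, and TAGLN3 6.04 ± 1.35% and 2.88 ± 0.255% (SD, n = 3 each).

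FHL2 (chromosome 2, 105357712 to 105438513, minus strand) encodes a LIM-domain protein that binds actin-linked integrins and acts as a transcription cofactor, in part on SRF targets. It had 29.7, 30.5 and 26.7 CPM in shTCTP libraries 1 to 3, and 22.5, 27.8 and 20.9 CPM in shCtrl libraries 1 to 3. The shTCTP library 3 lay just below shCtrl library 2, and all other shTCTP values were above all shCtrl values. The log2 fold change was 0.29 (SE 0.15, 95% interval -0.02 to 0.60) and did not pass, with 0.42 without shCtrl library 2 and 0.20 without shCtrl library 3. Its relative FHL3, another LIM-only protein, rose to 43.3, 57.1 and 54.1 CPM in shTCTP libraries, against 31.2, 29.4 and 29.6 CPM in shCtrl libraries (log2 fold change 0.78, SE 0.14, edgeR adjusted p = 0.00701). FHL3 missed the threshold without shTCTP library 2 (edgeR adjusted p = 0.0634) or shCtrl library 2 (edgeR adjusted p = 0.0609). FHL3 made up 86.7 ± 1.97% of the family FPKM in shTCTP and 82.5 ± 2.40% in shCtrl cells (SD, n = 3 each).

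**Figure D3:**
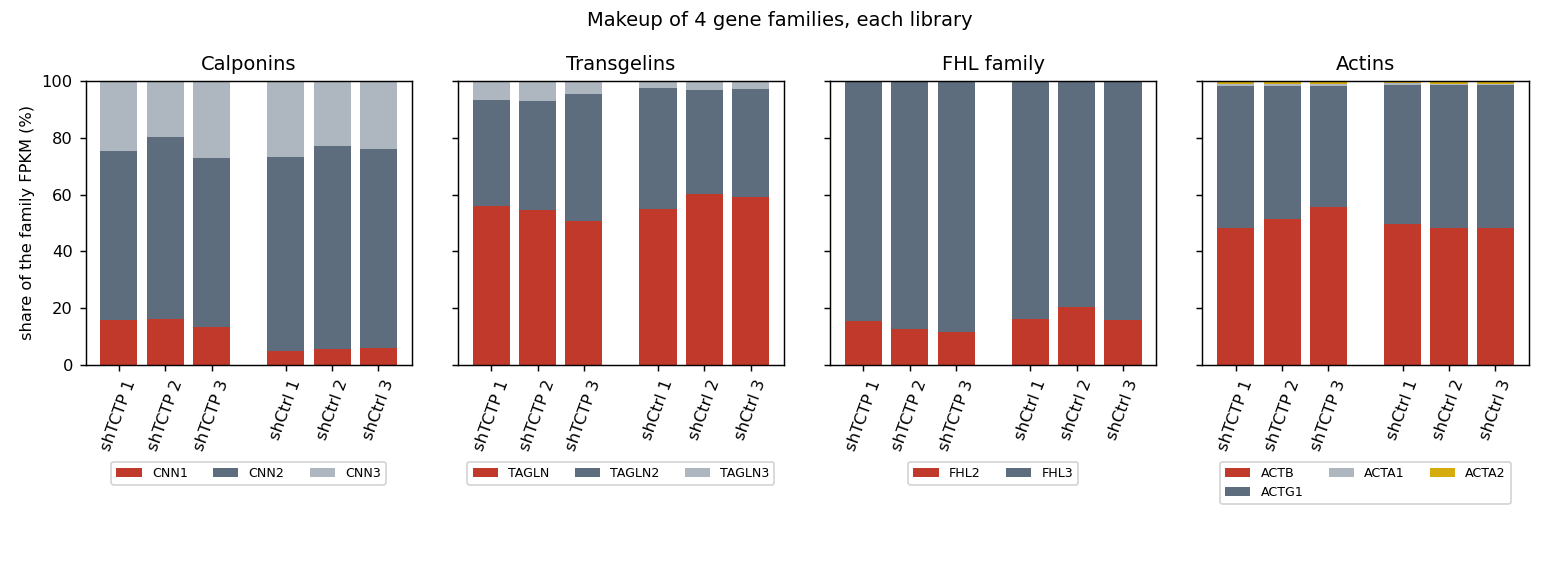
Share of each gene in the FPKM of its family, in percent, for calponins, transgelins, FHL proteins and actins, with shTCTP libraries 1 to 3 left of shCtrl libraries 1 to 3; the rarest genes are not drawn. The CNN1 share is 13.5 to 16.2% in shTCTP and 4.70 to 5.904% in shCtrl libraries, while ACTB and ACTG1 together make up nearly the whole actin bar in each library.

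The cytoplasmic actins carried most of the reads of the list. ACTB (chromosome 7, 5527147 to 5563784, minus strand) had 2749, 2967 and 3408 CPM in shTCTP libraries 1 to 3, and 2981, 2540 and 2694 CPM in shCtrl libraries 1 to 3. The highest value came from shTCTP library 3 and the groups overlapped (log2 fold change 0.15, SE 0.18, 95% interval -0.22 to 0.52). Without shTCTP library 3 the log2 fold change was 0.07, and without shCtrl library 2 it was 0.10. ACTG1 (chromosome 17, 81509971 to 81523847, minus strand) had 3511, 3345 and 3256 CPM in shTCTP libraries 1 to 3, and 3629, 3283 and 3451 CPM in shCtrl libraries 1 to 3. These values overlapped throughout (log2 fold change -0.04, SE 0.17, 95% interval -0.40 to 0.33), and the sign turned in 4 alternatives.

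The ratio of ACTB to ACTG1 in FPKM was 0.967, 1.10 and 1.29 in shTCTP libraries 1 to 3, and 1.01, 0.955 and 0.964 in shCtrl libraries 1 to 3. It was highest in shTCTP library 3, the library that stood apart. Actin genes have many processed pseudogenes that can share reads with them. Among the counted genes, 4 ACTB pseudogenes had 20 reads and 6 ACTG1 pseudogenes 48 reads over all 6 libraries, and adding them left the log2 fold changes at 0.15 and -0.04. How reads that match both actin genes were assigned is not recorded in any label.

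Among the muscle actins only ACTA1 differed by enough to pass. ACTA1, the skeletal muscle actin and a known SRF target, rose to 33.7, 32.3 and 29.1 CPM in shTCTP libraries, against 19.0, 22.7 and 22 CPM in shCtrl libraries (log2 fold change 0.58, SE 0.14, edgeR adjusted p = 0.0491). The call lay at the threshold. It was missed with RLE scaling (edgeR adjusted p = 0.0578), with upper quartile scaling (edgeR adjusted p = 0.0531), with a filter of 1 CPM in 3 libraries (edgeR adjusted p = 0.0543), and without any 1 library but shTCTP library 3. The edgeR adjusted p was then 0.137 and 0.181 without shTCTP library 1 or 2, and 0.178, 0.163 and 0.173 without shCtrl library 1, 2 or 3. ACTA2, the smooth muscle actin, had 52.2, 53.7 and 56.3 CPM in shTCTP libraries and 47.3, 46.5 and 50.7 CPM in shCtrl libraries. Its groups did not overlap, but the log2 fold change of 0.17 (SE 0.12) did not pass. ACTG2 had 0.270 to 0.411 CPM in shTCTP and 0.208 to 0.426 CPM in shCtrl cells, and ACTC1 was too low to test.

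FLNA and VCL are among the longest genes of the list, and for both each group held high and low libraries. FLNA (chromosome X, 154348524 to 154374638, minus strand) encodes filamin A, which crosslinks actin filaments into networks. It had 396, 546 and 561 CPM in shTCTP libraries 1 to 3, and 533, 444 and 432 CPM in shCtrl libraries 1 to 3. Both groups thus held high and low libraries, and the log2 fold change was 0.09 (SE 0.16, 95% interval -0.25 to 0.44). It was 0.24 without shTCTP library 1 and 0.01 without shTCTP library 2 or 3, and 0.19, 0.05 and 0.03 without shCtrl library 1, 2 or 3.

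VCL (chromosome 10, 73995193 to 74121363, plus strand) encodes vinculin, which ties actin filaments to talin at focal adhesions. It had 20.5, 18.3 and 25.0 CPM in shTCTP libraries 1 to 3, and 25.8, 19.98 and 16.3 CPM in shCtrl libraries 1 to 3. The highest library of each group was shTCTP library 3 and shCtrl library 1. The log2 fold change was 0.04 (SE 0.18, 95% interval -0.34 to 0.41), and its sign turned without shTCTP library 3, without shCtrl library 3 and with the length correction. AP3M1 overlaps VCL on the opposite strand with 240 to 397 reads.

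Tested genes were put into 5 equal classes by length. For the class of the longest genes (5.89 to 57 kb) the median log2 deviation from the mean of all libraries was -0.05, -0.04 and 0.21 in shTCTP libraries 1 to 3, and 0.10, -0.05 and -0.14 in shCtrl libraries 1 to 3. FLNA deviated by -0.28, 0.18 and 0.22 in shTCTP libraries 1 to 3 and by 0.15, -0.12 and -0.15 in shCtrl libraries 1 to 3. VCL deviated by 0.27 in shTCTP library 3 and by 0.32 in shCtrl library 1. TPM1 and FHL2, also of this class, deviated by -0.02 and 0.03 in shTCTP library 3 and by 0.05 and -0.22 in shCtrl library 1. For the class of the shortest genes (up to 1.80 kb) the median was -0.19 in shTCTP library 3 and -0.08 in shCtrl library 1. The part of this length trend in the values of single genes was not tested. Without both of these libraries the log2 fold changes were 0.10 for FLNA, 0.10 for VCL and 1.61 for CNN1.

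**Figure D4:**
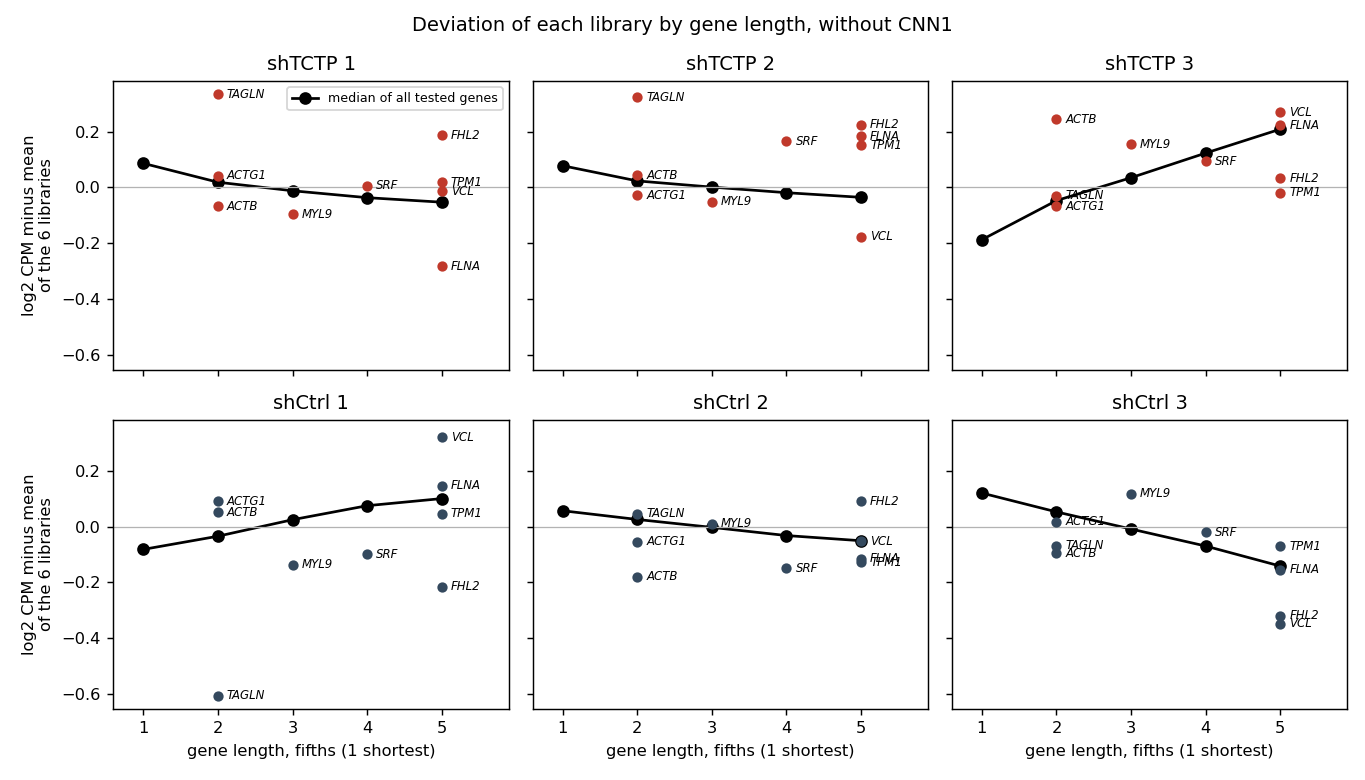
Log2 CPM of each library minus the mean of the 6 libraries, against the 5 length classes of all tested genes, for the medians of all tested genes (black line) and for 9 of the 10 genes (red points in shTCTP, dark in shCtrl libraries; CNN1 is not drawn). The black line climbs with length in shTCTP library 3 and shCtrl library 1 and falls in the other 4. FLNA and VCL lie high in both of the first, while TPM1 and FHL2, of the same length class, do not. FLNA also lies high in shTCTP library 2, at 0.18.

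TPM1 and MYL9 did not pass, and their groups overlapped. TPM1 (chromosome 15, 63042632 to 63071915, plus strand) encodes a tropomyosin that lies along actin filaments. It had 45.8, 50.1 and 44.6 CPM in shTCTP libraries 1 to 3, and 46.6, 41.3 and 43.0 CPM in shCtrl libraries 1 to 3 (log2 fold change 0.10, SE 0.13, 95% interval -0.17 to 0.37). Only shTCTP library 2 lay above all shCtrl libraries. Without shTCTP library 2 the log2 fold change was 0.04, and without shCtrl library 2 it was 0.06. TPM3 and TPM4 supplied 43.1 ± 1.85% and 50.6 ± 2.30% of the tropomyosin FPKM in shTCTP cells and 44.2 ± 1.04% and 49.9 ± 1.05% in shCtrl cells (SD, n = 3 each). TPM2, TPM3 and TPM4 had log2 fold changes of 0.25, 0.00 and 0.06 and none passed.

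MYL9 (chromosome 20, 36541484 to 36551447, plus strand) encodes the regulatory myosin light chain of smooth muscle, whose phosphorylation starts contraction. It had 11.6, 11.97 and 13.8 CPM in shTCTP libraries 1 to 3, and 11.3, 12.5 and 13.5 CPM in shCtrl libraries 1 to 3. The ranges nearly coincided (log2 fold change 0.01, SE 0.16, 95% interval -0.32 to 0.34), and the sign of so small a difference turned in 7 alternatives. MYL9 made up 2.73 ± 0.457% of the FPKM of regulatory light chains in shTCTP and 2.66 ± 0.337% in shCtrl cells, the rest being MYL12A and MYL12B, near-identical genes that can share reads. MYL12A, MYL12B, MYL6 and MYL6B had log2 fold changes of -0.19, 0.09, -0.11 and -0.25 and none passed.

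The wider set of MRTF-SRF cytoskeletal targets gave few calls. Of 24 listed genes 19 were tested, 2 rose, 0 fell and 17 did not pass, with a median log2 fold change of 0.17, against 0.00 for all tested genes. The median of the 10 genes described here was 0.13. Beside ACTA1 the other was SMTN, the gene of smoothelin, a protein of contractile smooth muscle cells, one of whose RefSeq windows holds CCATATAAGG. A match was also held by ACTA1, and by ACTG2, CNN2, TPM4, MYLK, ACTN1 and TGFB1I1, which did not pass. SMTN rose to 74.7, 80.3 and 67.0 CPM in shTCTP libraries, against 45.5, 44.4 and 45.7 CPM in shCtrl libraries (log2 fold change 0.71, SE 0.13, edgeR adjusted p = 0.00701). It missed the threshold without shTCTP library 2 (edgeR adjusted p = 0.0813) or shCtrl library 2 (edgeR adjusted p = 0.0684), and in both cases no gene of the list passed. In 6 of 19 genes every shTCTP library lay above every shCtrl library, and in 0 below, where over all tested genes 9.83% lay above and 7.3% below. Over all tested genes 1.26% were called higher and 0.148% lower.

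Of 7 tested cofactors of SRF 1 rose, 0 fell and 6 did not pass, with a median log2 fold change of 0.20. Over all tested genes 1.26% were called higher and 0.148% lower. In 3 of the 7 every shTCTP library lay above every shCtrl library, where over all tested genes 9.83% lay above and 7.3% below. The cofactor that rose was MKL1, also called MRTFA, the best known MRTF. It had 37.4, 45.0 and 39.0 CPM in shTCTP libraries and 30.1, 25.1 and 25.1 CPM in shCtrl libraries, so the groups were apart (log2 fold change 0.60, SE 0.14, edgeR adjusted p = 0.0429). It missed the threshold without shTCTP library 2 (edgeR adjusted p = 0.199), without shCtrl library 1, 2 or 3 (edgeR adjusted p = 0.0587, 0.279 and 0.236) and by limma on log2 FPKM (adjusted p = 0.132 with a pseudocount of 1, and 0.112 with 0.1).

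Among the genes listed as ternary complex factor type SRF targets, of 10 tested genes 6 rose and 0 fell, with a median log2 fold change of 1.23. Whether these factors act on them in these cells was not measured. Over all tested genes 1.26% were called higher and 0.148% lower, and this list, like the others, was chosen with results of the comparison known. FOS, a subunit of AP-1, had a log2 fold change of 1.83 (SE 0.21), JUNB of 1.10 (SE 0.13), EGR1 of 1.42 (SE 0.20) and FOSB of 1.49 (SE 0.21), and all of these passed. The largest, FOS, stood at 8.39, 7.23 and 8.48 CPM in shTCTP libraries and 2.62, 2.36 and 1.79 CPM in shCtrl libraries. With any 1 library left out 4 to 7 of the 10 ternary complex factor type targets passed. Of the 19 MRTF-SRF cytoskeletal targets 0 to 2 did. The difference between the lists was not tested, and nothing is read from it, since both were chosen with results of the comparison known.

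**Figure D5:**
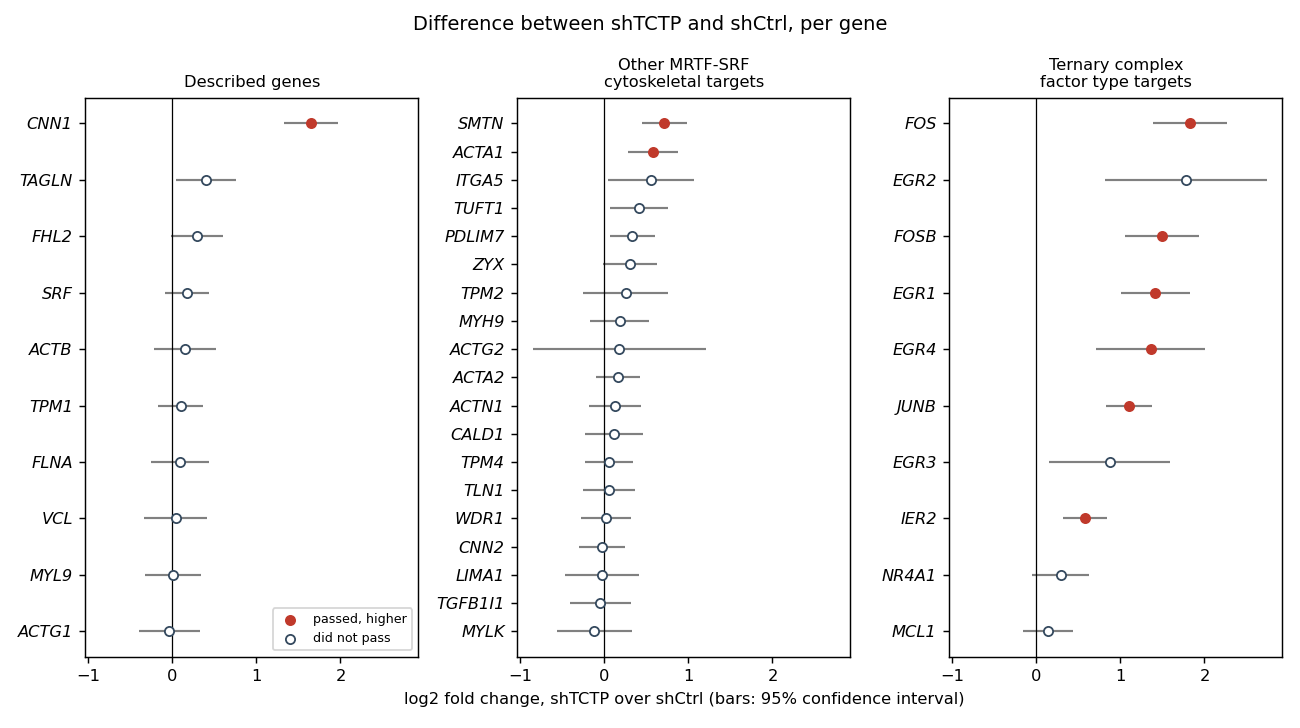
Log2 fold change, shTCTP over shCtrl, of each tested gene with its 95% confidence interval, in 3 lists, each sorted by value. Filled red points passed an adjusted p under 0.05 over all genes by the edgeR quasi-likelihood test: 1 of 10 described genes, 2 of 19 other cytoskeletal targets and 6 of 10 ternary complex factor type targets.

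Genes of actin monomer binding and turnover and of focal adhesions gave no calls. Of 12 tested genes of actin monomer binding and turnover 0 passed by edgeR, 0 by DESeq2, and 1 had an unadjusted p under 0.05, with a median log2 fold change of 0.01. TWF2, a twinfilin that caps filaments, stood at -0.41 (SE 0.15) and GSN, the severing protein gelsolin, at -0.26 (SE 0.14). Of 18 tested focal adhesion genes 0 passed by edgeR, 0 by DESeq2, and 0 had an unadjusted p under 0.05, with a median of 0.12, ZYX (zyxin) standing at 0.31 (SE 0.15) and LPP at 0.34 (SE 0.18). Over all genes, 1572 had an unadjusted p under 0.05 and 200 passed after adjustment by edgeR. Of the tested relatives of the 10 genes, 4 of 15 rose and 0 fell, namely ACTA1, TAGLN2, TAGLN3 and FHL3. Over all tested genes 1.26% were called higher and 0.148% lower. ACTA1 was already counted among the MRTF-SRF cytoskeletal targets.

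Markers of other cells were looked at because CNN1, TAGLN and MYL9 mark smooth muscle and stellate cells in the liver. All 8 hepatocyte markers were detected, with a summed level of 13091 to 15760 CPM in shTCTP and 16995 to 17382 CPM in shCtrl cells. Most of this sum came from SERPINA1, ALB and APOA1. Every shTCTP library lay below every shCtrl library for 3 of the 8 markers, and above for 0. Over all tested genes 7.3% lay below and 9.83% above. By edgeR and by DESeq2 0 of the 8 markers passed, and 1 had an unadjusted p under 0.05. TTR stood at -0.50 (SE 0.15) and AFP at -0.33 (SE 0.17). Of the 8 markers 0 had a positive log2 fold change, against 49.6% of all tested genes, and their median was -0.28. The lists above leaned the other way or not at all. Their positive share was 90% for the 10 genes and ran from 50% (actin monomer binding and turnover) to 100% (ternary complex factor type targets). Nothing is read from these shares. With both shTCTP 3 and shCtrl 1 left out, 1 of the hepatocyte markers passed as lower. The part of the lower hepatocyte marker sum in the other results was not tested. Of 12 fibroblast, stellate and smooth muscle markers 9 were in the count table, 4 were tested and 0 passed by edgeR or DESeq2 (1 had an unadjusted p under 0.05), with a summed level of 65.0 to 71.9 CPM in shTCTP and 59.7 to 63.6 CPM in shCtrl cells, most of it ACTA2. PDGFRB, a receptor of stellate cells and pericytes, was present in every library, with 331 to 401 reads in shTCTP and 331 to 389 reads in shCtrl libraries, and is named after its values were seen. Others of the list were at or near 0: MYH11 had 0 and 0 to 1 reads, PDGFRA 0 to 1 and 0 reads, LUM 0 to 1 reads in both, DES 1 to 7 and 3 to 7 reads, and COL3A1 3 to 20 and 3 to 8 reads. COL1A1 had 0.548 to 1.25 CPM in shTCTP and 0.108 to 0.623 CPM in shCtrl cells. Of 6 endothelial and blood markers 5 were in the table, 2 were tested and 0 passed by edgeR or DESeq2 (0 had an unadjusted p under 0.05), CD68 at -0.52 (SE 0.28) and HBA1 at -0.02 (SE 0.31), with a summed level of 2.33 to 5.75 CPM in shTCTP and 5.05 to 5.86 CPM in shCtrl cells.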

How the data were processed

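Messenger RNA was sequenced from 3 shTCTP and 3 shCtrl samples of HepG2 cells, as directional paired-end libraries of polyadenylated RNA per the labels' protocols. The authors deposited raw counts for each gene, and separately FPKM for each gene, with 1 column a library. The submitters' processing notes name bcl2fastq, TopHat2, edgeR and GRCh38. The read counter, its annotation and its strand setting were not found in the labels.

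After filterByExpr and TMM scaling, counts were tested with the quasi-likelihood test of edgeR 4.0.16 in R 4.3.3, with robust dispersions and no covariate besides group. The Benjamini-Hochberg adjustment ran over 14197 genes, with a threshold of 0.05. Standard errors and intervals were derived from the F statistic. No list was tested, and some listed genes are not reported here. The deposited FPKM, held for 26184 genes, served for levels, family shares and limma 3.58.1 on log2(FPKM + 1) and log2(FPKM + 0.1), which understates changes of low genes. Lengths came from the ratio of counts to FPKM in libraries with 5 or more reads and 0.1 or more FPKM, and covered 99.1% of tested genes. Coordinates came from GENCODE 29, which held 98.0% of the gene identifiers. The procedure was tested on simulated data.

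The 10 genes and all lists were chosen with earlier results of these data known. The rule for named genes took the 10 genes, their relatives, TPT1, up to 4 genes past the threshold from each list (or the 2 with the smallest p), and the 5 genes whose log2 CPM (prior count 2) correlated best with SRF. Alternatives were RLE or upper quartile scaling, no filter, a filter of 1 CPM in 3 libraries, a block for the replicate number, DESeq2 1.42.0, limma on FPKM, each library left out in turn, and actin pseudogenes added. Leaving out both shTCTP 3 and shCtrl 1, and a loess correction for gene length (span 0.3), were added after seeing the data. Figures were drawn with matplotlib 3.10.9.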

Additional observations from a re-analysis of the deposited data

How the results depend on the processing

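CNN1 was the only one of the 10 genes past the threshold in every alternative. Over all genes 200 passed, against 317 with no filter, 314 by DESeq2, and 79 (without shCtrl 2) to 343 (without shTCTP 3) with 1 library left out; with both shTCTP 3 and shCtrl 1 left out 239 passed, and with the length correction 273. Of the MRTF-SRF cytoskeletal targets 2 passed, against 1 with RLE scaling, upper quartile scaling or the filter of 1 CPM, and 0 to 2 with 1 library left out.

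With the replicate number as a block 130 genes passed, 122 of them among the 200, and 1 MRTF-SRF cytoskeletal target; ACTA1, TAGLN2 and MKL1 missed the threshold (edgeR adjusted p = 0.157, 0.139 and 0.128). The deviations of same-numbered samples correlated at -0.232, 0.0015 and -0.2. The highest value of any pair, 0.295, was that of shTCTP 3 with shCtrl 1, the libraries in which long genes read high. Such values cannot show whether same-numbered samples shared a batch, and no label states it.

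Log2 fold changes near 0 changed sign, and the cause was not tested. MYL9 stood at -0.0065 with RLE scaling, -0.0059 with no filter, -0.0048 with the filter of 1 CPM, -0.0064 by DESeq2 and -0.14 without both libraries. TPM3 stood at -0.010 with RLE scaling and by DESeq2, -0.0053 with upper quartile scaling, -0.012 with no filter, -0.0094 with the filter of 1 CPM and -0.032 with the length correction, which gave -0.013 for VCL. By limma on log2 FPKM, ACTG1 stood at 0.070 and CNN2 at 0.073 with either pseudocount, and HBA1 at 0.0028 with a pseudocount of 1. Without both libraries ACTG1 stood at 0.026 and HBA1 at 0.23. With 1 library left out the ranges were -0.064 to 0.067 for MYL9, -0.11 to 0.23 for VCL, -0.073 to 0.00029 for ACTG1, -0.034 to 0.49 for ACTG2, -0.12 to 0.034 for CNN2, -0.30 to 0.095 for MYL6, -0.0036 to 0.15 for MYL12B, -0.064 to 0.090 for TPM3 and -0.45 to 0.26 for HBA1. With 3 libraries a group, differences as small as that of SRF could not be told from the spread.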
